A study of Mus musculus with 24 samples.

Results

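The miRNA profile of the uninjured cortex was compared with that of the cerebellum in 4 sham pups at postnatal day 9. Both regions of each pup were sequenced, so that 8 of the 24 libraries of the study entered the comparison, and each cortex was set against the cerebellum of the same pup. Of 1531 mouse miRNA entries, the 425 with a mean above 10 CPM (reads scaled to a common library total) over the 8 libraries were compared, and the other 1106 were not.

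MiRNAs are short RNAs that are cut from hairpin precursors and guide Argonaute proteins to mRNAs, which are then degraded or less translated. The choice of targets rests mainly on the seed, the stretch near the 5′ end that pairs with the mRNA, so that miRNAs with the same seed form a family. In the developing brain, families of this kind accompany the exit of progenitors from the cell cycle, the maturation of neurons and synapses, and the identity that Hox genes give to the hindbrain. At this age the mouse cerebellum still holds a dividing layer of granule cell precursors, while neurogenesis in the cortex has largely ended.

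The study examined early miRNA changes after neonatal hypoxic-ischemic brain injury (HIBI), made by cautery of the right carotid artery and later hypoxia, in CD1 mice of both sexes. The sham pups had isoflurane anesthesia, bupivacaine at the incision and neck dissection like the HIBI pups, kept the artery intact, and were kept from the dam in room air for as long as the HIBI pups were hypoxic. Tissue of the right hemisphere was collected 30 min later, and small RNA libraries were made from 200 ng of RNA. The 4 sham pups, numbered 2, 3, 6 and 8, therefore carry the handling, anesthesia and surgery of the model, and the 4 HIBI pups, numbered 1, 4, 5 and 7, served only as a second set of animals for the same regional comparison.

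The sequences of the miRNAs on which the comparison turned are given first, as RefSeq lists them for GRCm38.p6, with the seed (bases 2 to 8) in capitals. Of the 425 miRNAs, 364 were matched to a mature sequence there and 340 to the position of a hairpin. The first set holds 8 of the 10 miRNAs with the largest fold change toward the cerebellum. MiR-10a and miR-10b differ at a single base, U12A, counted from the 5′ end, whereas miR-216a and miR-216b differ in the last base of the seed (A8U) and at U1A, U11A and C17A.
miR-615-3p: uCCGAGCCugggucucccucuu
miR-206-3p: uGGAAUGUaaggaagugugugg
miR-10a-5p: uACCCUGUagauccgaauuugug
miR-10b-5p: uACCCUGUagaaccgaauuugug
miR-216a-5p: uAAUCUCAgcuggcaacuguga
miR-216b-5p: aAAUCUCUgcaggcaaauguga
miR-182-5p: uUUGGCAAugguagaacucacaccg
miR-183-5p: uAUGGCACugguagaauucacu

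The second set holds miRNAs with a large excess in the cortex. MiR-221-3p and miR-222-3p share the seed and differ in the 3′ part, and miR-128-3p is the most abundant of the set.
miR-137-3p: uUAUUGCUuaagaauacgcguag
miR-139-5p: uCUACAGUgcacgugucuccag
miR-221-3p: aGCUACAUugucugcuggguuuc
miR-222-3p: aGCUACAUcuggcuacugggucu
miR-7a-5p: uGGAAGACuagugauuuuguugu
miR-128-3p: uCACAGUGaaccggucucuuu

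The third set shows 2 seed families whose members differed in their regional level. Let-7b and let-7c differ only at G17A, and let-7c and let-7a only at G19A, so that a read with 1 miscalled base can pass from one entry to the next.
let-7b-5p: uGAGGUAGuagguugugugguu
let-7c-5p: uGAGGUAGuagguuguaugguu
let-7a-5p: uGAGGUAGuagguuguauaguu
let-7d-5p: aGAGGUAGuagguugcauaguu
let-7f-5p: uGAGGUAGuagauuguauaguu
let-7g-5p: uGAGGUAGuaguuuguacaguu
let-7i-5p: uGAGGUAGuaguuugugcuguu
miR-125a-5p: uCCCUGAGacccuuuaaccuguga
miR-125b-5p: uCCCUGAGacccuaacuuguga
miR-351-5p: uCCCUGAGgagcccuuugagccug

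Each level is a CPM value scaled by TMM, which sets the bulk of miRNAs equal between libraries, and values are listed in the order of pups 2, 3, 6 and 8. The cortex libraries held 2160270 to 3406624 counts on mouse miRNAs and the cerebellum libraries 1733810 to 2940887. Counting error weighs most on miRNAs near 10 CPM. No 2 libraries of a region were alike within sampling noise, with a chi-square of 80.8 to 420 per degree of freedom between replicates. A miRNA was called with an adjusted p-value under 0.05 in edgeR's quasi-likelihood test with the pup as a block and a fold change above 1.5. For a single miRNA, an exact paired permutation over 4 pups has 16 arrangements and cannot give a two-sided p-value below 0.125. All fold changes are cortex over cerebellum, so that a negative log2 value stands for a higher level in the cerebellum.

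The regions differed in more than 1 of every 2 miRNAs. Of the 425 tested, 248 (58.4%) were called, of which 130 (30.6%) were higher in the cortex and 118 (27.8%) were higher in the cerebellum. The direction was the same in 4 of 4 pups for 241 of the 248, and 41 of the 248 had regional levels that overlapped in at least 1 library. The 4 libraries of the cortex lay wholly apart from the 4 of the cerebellum for 235 miRNAs (55.3%), 28 of which were not called. Of the called miRNAs, 27 were over 4-fold higher in the cerebellum and 14 in the cortex. These counts depend in part on the minimum, which more miRNAs passed through the cerebellum alone than through the cortex alone. The median log2 fold change of all 425 was -0.067, and the median SE was 0.26.

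**Figure D1:**
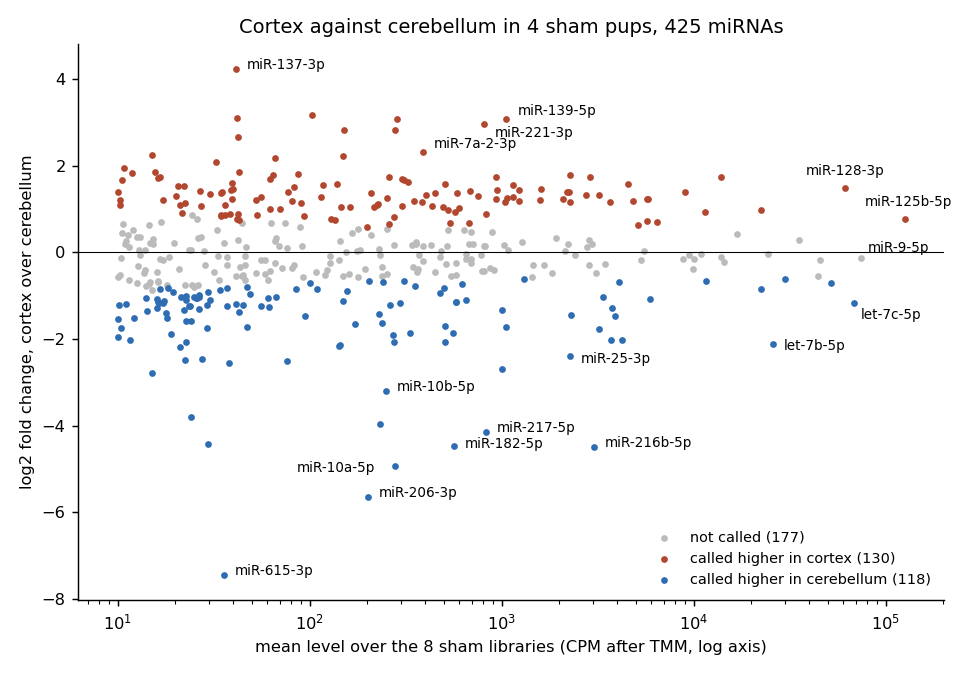
The log2 fold change of cortex over cerebellum (vertical axis) is plotted against the mean level over the 8 sham libraries (horizontal log axis, CPM after TMM) for 425 miRNAs, 1 point each, coloured by call. MiR-615-3p at -7.44 and miR-137-3p at 4.23 are the extremes, and abundant miRNAs such as miR-128-3p, miR-125b-5p, let-7c-5p and let-7b-5p also stand off the zero line.

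Because the minimum was set on the mean of both regions, a miRNA could enter through 1 region alone. Of the tested miRNAs, 29 had a mean of 10 CPM or less in the cortex, of which 23 were called higher in the cerebellum, and 15 had such a mean in the cerebellum, of which 11 were called higher in the cortex. Those just above the minimum were miR-709 and miR-154-5p, with mean CPM of 10.02 and 10.07, and miR-154-5p (1.39) lost its call without pup 8 (1.26). In whole tissue, fewer cells of a type and less RNA per cell cannot be told apart.

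The 3 tested miRNAs of the Hox clusters were all higher in the cerebellum. Hox genes set position along the hindbrain and spinal cord and are silent in the forebrain, and miR-10a, miR-10b and miR-615 are transcribed from within their clusters. The hairpin of miR-10a lies at chr11:96317165-96317274 on the plus strand, outside any other annotated gene on that strand, and that of miR-10b at chr2:74726070-74726137 in introns of Hoxd3 and Hoxd4. MiR-10a-5p stood at 9.19, 32.2, 11.8 and 11.1 CPM in the cortex of pups 2, 3, 6 and 8 and at 206, 1244, 365 and 338 in the cerebellum. The regions did not overlap, and pup 3 was highest in both. The difference was 30.5-fold (log2 fold change -4.93, SE 0.26, adjusted p = 4.11e-11). MiR-10b-5p ran from 28.96, 49.97, 87.3 and 37.9 CPM in the cortex to 322, 646, 432 and 389.6 in the cerebellum, again without overlap and with the highest cerebellar value in pup 3 (log2 fold change -3.20, SE 0.27, adjusted p = 2.68e-08).

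MiR-615-3p was all but absent from the cortex, with 4 reads in the 4 cortex libraries against 627 in the 4 cerebellum libraries. That is a ratio of 188 with a 95% interval from 73.2 to 693, which covers counting error only. Its levels were 0, 0.296, 0.289 and 0.851 CPM in the cortex and 63.6, 135, 42.4 and 43.2 in the cerebellum, and the fitted log2 fold change of -7.44 (adjusted p = 6.06e-09) depends on the prior count. The summed level of the 3 Hox-cluster miRNAs was 38.1 to 99.4 CPM in the cortex libraries and 591 to 2025 in the cerebellum libraries. Only these 3 of 8 Hox-cluster entries passed the minimum. MiR-615-3p passed it through the cerebellum alone, so the sum is no test of the labels. In the striatum/thalamus of the same pups, on a scale set over all 12 sham libraries, the 3 stood between the other regions, with miR-10a-5p at 94.96 ± 23.3 CPM, miR-10b-5p at 101 ± 34.9 and miR-615-3p at 11.5 ± 6.95 (mean ± SD, n = 4).

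Large excesses in the cerebellum were also found at 3 other loci. MiR-206-3p, a miRNA best known from skeletal muscle, stood at 6.89, 11.2, 6.36 and 6.81 CPM in the cortex and at 476, 389, 405 and 315 in the cerebellum. Every cerebellum library was far above every cortex library (50.4-fold, log2 fold change -5.66, SE 0.29, adjusted p = 4.11e-11). The other tested muscle miRNA, miR-1a-3p, stood at 44.1, 13.9, 31.8 and 56.6 CPM and 39.3, 64.1, 130.1 and 111, with overlap and the opposite order in pup 2 (log2 fold change -1.26, SE 0.36, adjusted p = 0.00558). Without pup 6 it was no longer called (-0.96). Only these 2 of 10 muscle entries passed the minimum, with a summed level of 25.1 to 63.4 CPM in the cortex and 426 to 535 in the cerebellum. MiR-206-3p passed the minimum through the cerebellum alone, so the sum is no test of the label. The part of muscle tissue in either value was not tested.

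The hairpins of miR-216a and miR-217 lie in an intron of Gm12082, at chr11:28757012-28757083 and chr11:28763728-28763835, and that of miR-216b lies 10735 bases upstream on the same strand. MiR-216b-5p was the most abundant of the locus, at 193, 353, 306 and 194 CPM in the cortex and 7258, 5368, 4864 and 5583 in the cerebellum (log2 fold change -4.49, SE 0.24, adjusted p = 5.61e-11). MiR-217-5p followed at 74.9, 96.1, 109 and 79.1 against 1553, 1440.2, 1641 and 1674 CPM (log2 fold change -4.14, SE 0.22, adjusted p = 4.11e-11). In both, every cerebellum library was more than 10-fold above every cortex library. Both arms of miR-216a were called as well, the 5p arm at -4.43 and the 3p arm at -3.81, from cortex levels of at most 5.03 and 4.73 CPM. Both arms passed the minimum through the cerebellum alone.

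MiR-182 and miR-183, from a cluster known from sensory cells of the retina and inner ear, have hairpins at chr6:30165918-30165992 and chr6:30169668-30169737 on the minus strand. MiR-182-5p stood at 208, 42.3, 22.5 and 22.6 CPM in the cortex and at 1181, 1371, 634 and 1035 in the cerebellum (log2 fold change -4.47, SE 0.39, adjusted p = 4.66e-08). The cortex of pup 2 was well above the other 3 cortices and still below every cerebellum. MiR-183-5p was also highest in the cortex of pup 2 and did not overlap between the regions, with 92.8, 27.5, 18.2 and 8.51 CPM and 404, 619.7, 257 and 428 (log2 fold change -3.95, SE 0.41, adjusted p = 4.25e-07). Both tested entries of the cluster were called. The cortex of pup 2 also had the highest summed level of the miR-200 family among the 4 cortices.

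**Figure D2:**
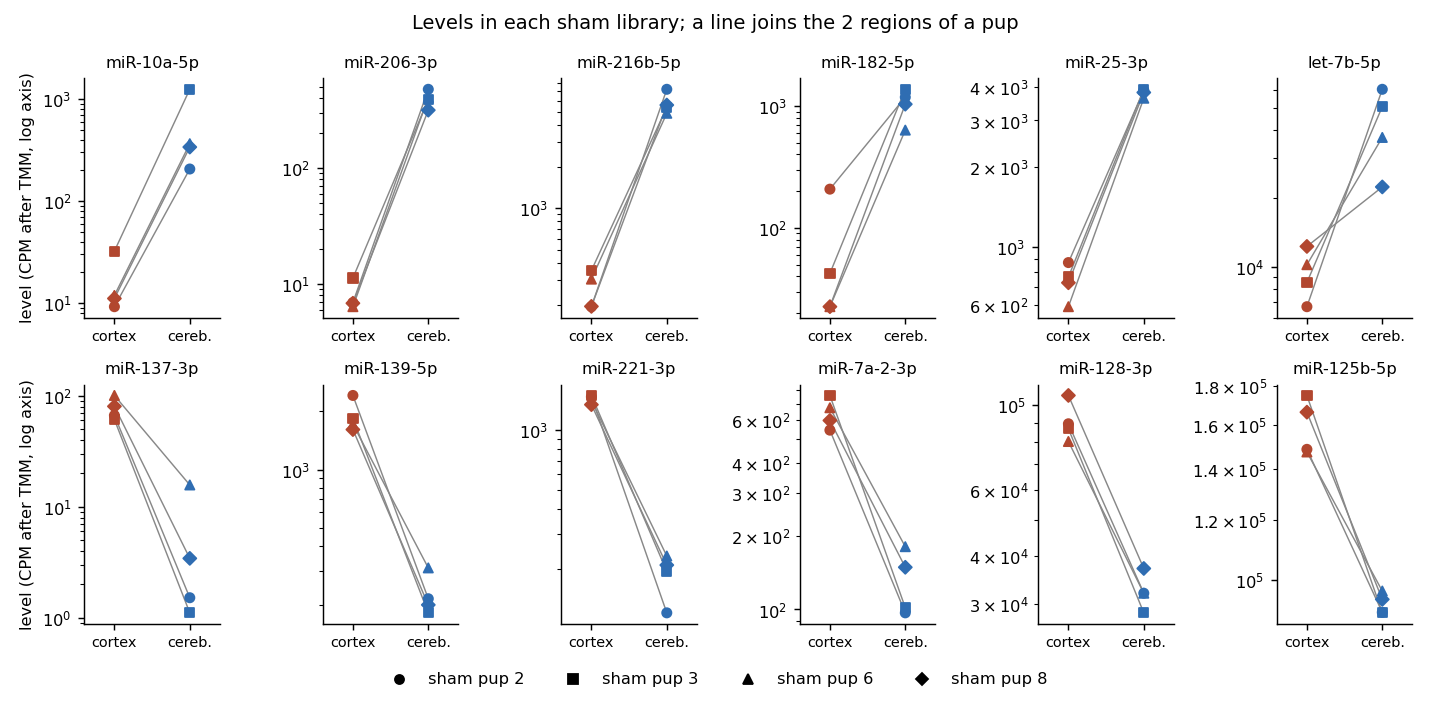
Levels of 12 miRNAs in each sham library (vertical log axis, CPM after TMM, with its own range in each panel), with a line joining the cortex and cerebellum of a pup and a symbol for each pup. The upper 6 miRNAs are higher in the cerebellum and the lower 6 in the cortex, in all 4 pups.

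The miR-17/92 cluster and its relatives, known from proliferating cells, were higher in the cerebellum. They are transcribed under Myc and Mycn, and 12 of the 13 tested members were called higher in the cerebellum and 0 in the cortex. Their median log2 fold change was -1.71, against -0.067 over all 425 miRNAs. The part of dividing cells in this difference was not tested. One locus of the group lies inside Mcm7, a gene of the replicative helicase. There miR-25 lies at chr5:138165321-138165404 and miR-106b at chr5:138165737-138165818, and 6 of 6 tested miRNAs of the locus were called. Guide strands of this group are shown because 4 of them share the seed AAAGUGC. MiR-25 has the seed AUUGCAC, which miR-92a-3p (-1.63, called) of the same list also carries. MiR-92b-3p, outside the list, has that seed too and was not called (0.12), so the excess did not extend to every miRNA with it.
miR-17-5p: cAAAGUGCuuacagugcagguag
miR-20a-5p: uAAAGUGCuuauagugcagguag
miR-93-5p: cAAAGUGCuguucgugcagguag
miR-106b-5p: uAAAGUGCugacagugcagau
miR-25-3p: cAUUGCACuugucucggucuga

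MiR-25-3p stood at 869.6, 766, 592 and 729 CPM in the cortex and 3903, 3936, 3641 and 3829 in the cerebellum (log2 fold change -2.38, SE 0.18, adjusted p = 6.79e-09). MiR-93-5p stood at 1526, 1508, 1342 and 1502 and 5409, 4675, 4917 and 4950.4 CPM (log2 fold change -1.76, SE 0.17, adjusted p = 1.50e-07). The cerebellum libraries of both agreed closely among themselves and left a wide gap to the cortex. MiR-106b-5p and miR-106b-3p had log2 fold changes of -2.17 and -1.70. Together the 4 miRNAs with the seed AAAGUGC made up 0.166% ± 0.0097 of the library in the cortex and 0.566% ± 0.020 in the cerebellum (SD, n = 4), and 4 of 4 were called.

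The family of miR-15, miR-16, miR-195 and miR-497, which targets cyclins, had 7 tested entries that were all called higher in the cerebellum, with a median log2 fold change of -2.02. The guide strands share the seed AGCAGCA.
miR-15b-5p: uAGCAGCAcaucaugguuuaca
miR-16-5p: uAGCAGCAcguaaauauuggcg
miR-195a-5p: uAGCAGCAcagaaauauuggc
miR-497a-5p: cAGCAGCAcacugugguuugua

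MiR-15b-5p, from an intron of the condensin gene Smc4 at chr3:69009772-69009835, stood at 1732, 1877, 1443 and 1605 CPM in the cortex and 8843, 6795, 6279.7 and 5428 in the cerebellum (log2 fold change -2.02, SE 0.18, adjusted p = 4.54e-08). MiR-195a-5p stood at 97.9, 119, 75.4 and 137 and 479, 379, 438 and 469 CPM (log2 fold change -2.07, SE 0.23, adjusted p = 7.85e-07). The regions did not overlap for either. MiR-497a-5p, whose hairpin lies beside that of miR-195a on chromosome 11, had a log2 fold change of -1.91, and miR-195a-3p one of -2.50. MiR-322-5p carries the same seed from a locus on chromosome X and was not called (log2 fold change 0.51, SE 0.31, adjusted p = 0.161), so the excess did not extend to every miRNA with that seed.

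The let-7 family was higher in the cerebellum, and 2 of its members carried most of the excess. Let-7 miRNAs accumulate as cells stop dividing and differentiate, and they were among the most abundant miRNAs of both regions. Of 16 tested entries, 9 were called higher in the cerebellum and 0 in the cortex, with a median of -0.64. The 9 guide strands with the seed GAGGUAG made up 12.5% ± 1.91 of the cortex library and 23.4% ± 2.57 of the cerebellum library (SD, n = 4), and 4 of the 9 were called.

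Let-7b-5p stood at 6696, 8553, 10234 and 12311 CPM in the cortex and at 60261, 50556, 37039 and 22464 in the cerebellum (4.35-fold, log2 fold change -2.12, SE 0.27, adjusted p = 3.89e-06). The regions did not overlap, although the cerebellum ranged widely, from the lowest value in pup 8 to the highest in pup 2, and pup 8 had the highest cortex. Let-7c-5p stood at 32806, 33606, 48323 and 55402 and 115604, 93823, 90706 and 77326 CPM, with the same order of pups at both ends of the cerebellum (2.25-fold, log2 fold change -1.17, SE 0.20, adjusted p = 6.42e-05). These 2 summed to 51983 ± 13453 CPM in the cortex and 136945 ± 31808 in the cerebellum. The other 7 guide strands summed to 74522 ± 12137 and 95716 ± 10846 CPM.

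Let-7a-5p (-0.61) and let-7d-5p (-0.65) were called near the fold limit, and let-7a-5p fell short of it without pup 2 (-0.53). Let-7f-5p (-0.23), let-7g-5p (-0.11), let-7i-5p (-0.048), let-7e-5p (-0.18) and miR-98-5p (0.20) were not called. Among the arms opposite the guides, let-7b-3p was called at -1.85 and let-7d-3p at -1.28. Let-7b and 1 of the 2 let-7c hairpins share a transcript, Lncppara, at chr15:85707319-85707403 and chr15:85706603-85706697, and both arms of let-7b were called. The other let-7c hairpin, at chr16:77599657-77599750 in an intron of Mir99ahg, is marked by let-7c-1-3p, which was not called (log2 fold change -0.63, SE 0.30, adjusted p = 0.0771). The arms let-7c-2-3p (-1.23) and let-7a-1-3p (-1.23), the latter from chromosome 13, have the same mature sequence, so that their reads cannot be assigned to either locus, and both are among the 9 calls of the family. Without pup 6, let-7c-2-3p was no longer called (-0.92), and let-7c-1-3p was called without the pup as a block (-0.64) and with upper quartile normalization (-0.72).

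MiR-125a and miR-125b, relatives of lin-4 with the same seed, went in opposite directions. MiR-125b-5p, the most abundant miRNA of the cortex and second to let-7c-5p in the cerebellum, stood at 148516, 174790, 147342 and 166179 CPM in the cortex and 90737, 90610, 96784 and 94375 in the cerebellum (log2 fold change 0.77, SE 0.15, adjusted p = 0.000239). MiR-125a-5p stood at 36785, 40414, 37896 and 40521 and 82003, 75679, 49329 and 53733 CPM (log2 fold change -0.71, SE 0.17, adjusted p = 0.00158). Neither overlapped between the regions, and the ratio of miR-125b-5p to miR-125a-5p was 3.89 to 4.33 in the cortex and 1.11 to 1.96 in the cerebellum. Without pup 2, miR-125a-5p was no longer called (-0.58). The whole seed family, with miR-351-5p (-0.40, not called), made up 19.8% ± 1.69 of the cortex library and 16.04% ± 1.30 of the cerebellum library. Of the wider miR-125, miR-99 and miR-100 group, miR-99b-5p (-0.85) and miR-125a-3p (-0.90) were also called higher in the cerebellum, and 5 of 9 were not called. The hairpin of miR-125a lies in an exon of Spaca6 at chr17:17830812-17830879.

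**Figure D3:**
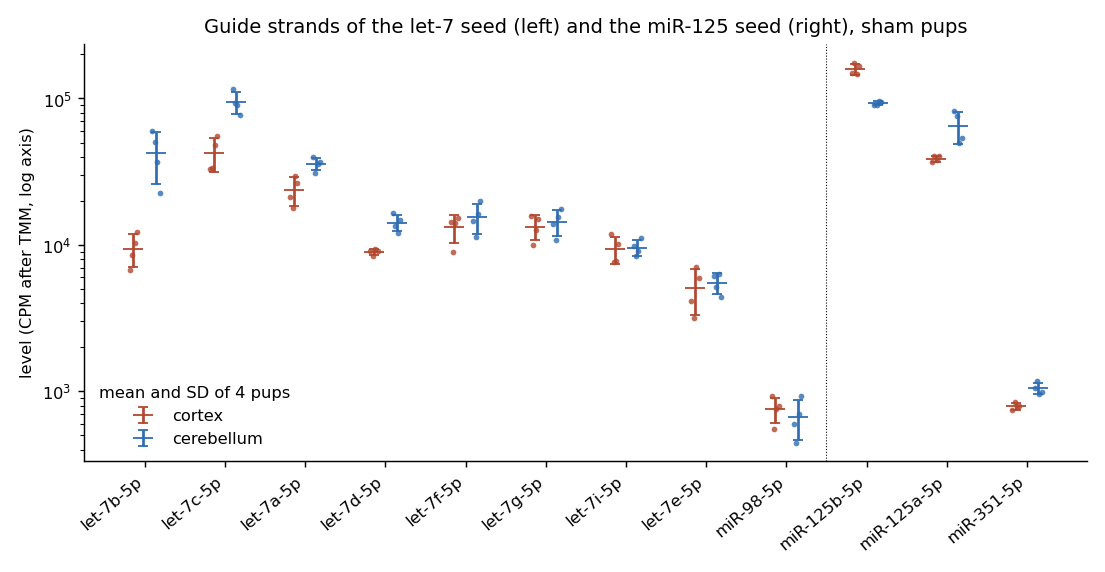
Levels of the 9 let-7 guide strands and the 3 miRNAs with the miR-125 seed (vertical log axis, CPM after TMM), with 1 point for each of 4 pups and the mean and SD, cortex and cerebellum side by side. Let-7b-5p and let-7c-5p show the wide gaps, let-7f-5p to miR-98-5p overlap, and miR-125b-5p and miR-125a-5p go in opposite directions.

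Of 37 seeds shared by at least 2 of the sequenced miRNAs (97 miRNAs), 28 held calls in 1 direction alone, 6 held none and 3 held calls in both. Beside the miR-125 seed, the latter were ACACACC, with miR-329-3p (0.88) and miR-362-3p (-1.51), and GAGGUUG, with miR-377-5p (1.43) and miR-672-5p (-0.93). These pairs come from different loci, and the members higher in the cortex lie in the chromosome 12 cluster. Among the shared seeds, let-7a-1-3p and let-7c-2-3p, and likewise miR-199a-3p and miR-199b-3p, are identical over their whole length.

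The miRNAs of the imprinted Dlk1-Dio3 locus on chromosome 12 formed the largest group higher in the cortex. The locus is transcribed from the maternal chromosome as a series of noncoding RNAs, Rtl1 antisense, Rian and Mirg, and its miRNAs are known from neurons and placenta. Of 18 tested miRNAs listed under Rtl1 antisense and Rian, 17 were called higher in the cortex, with a median of 1.26. Of 43 listed under Mirg, 41 were, with a median of 1.39, and none of the 61 was called higher in the cerebellum. The list names are not the annotated host of every member. The hairpins of miR-299a, miR-323, miR-1193 and miR-300, all listed under Mirg, lie outside any other annotated gene on their strand. Among all tested miRNAs with 1 hairpin in the RefSeq table, 60 of 70 on chromosome 12 were called higher in the cortex and 0 in the cerebellum.

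The summed level of the Mirg list was 89682, 76314, 98381 and 92212 CPM in the cortex and 22148, 28264, 50899 and 39039.7 in the cerebellum. The cerebellum of pup 6 was the highest and that of pup 2 the lowest, and neither reached the cortex. MiR-487b-3p (1.75), miR-412-5p (1.79), miR-409-3p (1.57), miR-411-3p (1.56) and miR-541-5p (1.39) of this list were among the clearest. MiR-487b-3p stood at 20514, 17881, 23674 and 21762 CPM in the cortex and 3867, 4660, 9784 and 8439 in the cerebellum (log2 fold change 1.75, SE 0.19, adjusted p = 7.85e-07).

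In the list of Rtl1 antisense and Rian, miR-673-5p had the largest fold change (log2 fold change 2.67, SE 0.36, adjusted p = 6.45e-06), at 73.1 ± 13.6 CPM in the cortex and 11.7 ± 5.11 in the cerebellum (mean ± SD, n = 4). MiR-370-3p, with its hairpin in an intron of Rian at chr12:109618258-109618336, stood at 5040.4, 4275, 4114 and 4166 CPM and 798, 1597, 2039 and 1152 (log2 fold change 1.73, SE 0.23, adjusted p = 5.83e-06). It too was higher in every cortex than in any cerebellum. MiR-337-5p (1.44), miR-770-3p (1.32), miR-434-3p (0.97) and miR-433-3p (0.92) were called as well. MiR-434-3p, the most abundant of these, stood at 29548 ± 3367 CPM in the cortex and 15459 ± 4593 in the cerebellum.

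Another large rodent cluster had the opposite direction. Of 17 tested miRNAs from the intron of Sfmbt2, 13 were called higher in the cerebellum and 0 in the cortex, with a median of -1.01. Their levels were low, with a summed level of 269 to 408 CPM in the cortex and 519.7 to 852 in the cerebellum. The smallest p-values were those of miR-466a-3p (-1.38), miR-669o-3p (-1.20), miR-669c-5p (-1.24) and miR-467d-5p (-1.24). The members are near-identical in sequence, so that their reads cannot be assigned with certainty. Without pup 6, 7 of the list were called.

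Most tested miRNAs of the neuronal maturation and activity lists were called higher in the cortex. Of 7 tested miRNAs that act at dendritic spines and in neuronal maturation, 5 were called higher in the cortex and 0 in the cerebellum, with a median of 0.86. Over all 425, 30.6% were called higher in the cortex. The 5 are miR-137-3p, miR-137-5p, miR-138-5p, miR-138-2-3p and miR-134-5p, so that arms of the same miRNA are counted apart. MiR-134-5p is also counted in the Mirg list. MiR-137, which restrains progenitor division and dendrite growth, led the list. MiR-137-3p stood at 66.6, 61.2, 101 and 80.4 CPM in the cortex and 1.51, 1.11, 15.7 and 3.43 in the cerebellum (18.7-fold, log2 fold change 4.23, SE 0.45, adjusted p = 4.96e-07). The cerebellum of pup 6 was well above the other 3 cerebella. MiR-137-5p had 74.9, 65.9, 93.3 and 62.1 CPM and 4.16, 2.21, 20.5 and 13.4 (log2 fold change 3.11, SE 0.42, adjusted p = 6.90e-06). Both arms come from the hairpin at chr3:118433857-118433929. MiR-138-5p, which limits spine size, had a log2 fold change of 1.38 (adjusted p = 0.00015). MiR-134-5p was called at 0.68 and lost the call without pup 2 (0.46).

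MiR-132 and miR-212 share a locus that the activity-dependent factor CREB induces, and all 4 of their arms were called higher in the cortex, from 1.25 for miR-212-5p, through 1.47 for miR-212-3p, to 1.51 for miR-132-5p. MiR-132-3p stood at 3127, 2705, 3652 and 3473 CPM in the cortex and 1341, 973, 1440 and 1219 in the cerebellum, without overlap (log2 fold change 1.39, SE 0.17, adjusted p = 2.95e-06). The other 2 tested miRNAs of the activity list were not called. The miR-29 family, which rises late in neuronal maturation, had 2 tested members, miR-29a-3p (log2 fold change 1.75, SE 0.23, adjusted p = 6.09e-06) and miR-29b-2-5p (1.36), both called higher in the cortex. MiR-29a-3p stood at 1486, 1079.7, 1657 and 1459 CPM in the cortex and 225, 413, 627 and 505 in the cerebellum.

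Several miRNAs outside these groups also had large fold changes toward the cortex. MiR-139-5p, from an intron of the phosphodiesterase gene Pde2a at chr7:101475376-101475443, stood at 2416, 1837, 1716 and 1609 CPM in the cortex and 215, 181, 309.7 and 199 in the cerebellum (8.45-fold, log2 fold change 3.08, SE 0.22, adjusted p = 3.91e-09). Its other arm, miR-139-3p, had a log2 fold change of 3.17. MiR-221 and miR-222 lie side by side on chromosome X, at chrX:19146294-19146388 and chrX:19146893-19146971. MiR-221-3p stood at 1472, 1495, 1408 and 1344 CPM and 120.3, 195, 233 and 209 (log2 fold change 2.95, SE 0.22, adjusted p = 6.79e-09). MiR-222-3p stood at 428, 564, 572 and 457 CPM and 26.9, 72.4, 91.01 and 66.1 (log2 fold change 3.08, SE 0.26, adjusted p = 2.76e-08). The regions were far apart for both, and the lowest cerebellum was that of pup 2. MiR-221-5p (2.82) and miR-344d-3p (2.82) were also among the 10 largest.

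MiR-128-3p, an abundant neuronal miRNA, made up 9.01% ± 0.692 of the cortex library and 3.25% ± 0.319 of the cerebellum library (SD, n = 4). It stood at 89455, 86818, 80316 and 106248 CPM in the cortex and 31952, 28362, 31952 and 37136 in the cerebellum (log2 fold change 1.49, SE 0.15, adjusted p = 3.08e-07). Of the 8 tested miRNAs of the miR-128 and miR-129 list, 6 were called higher in the cortex and 0 in the cerebellum, among them miR-129b-3p (1.04). In the striatum/thalamus of the sham pups, miR-128-3p was at 32048 ± 8277 CPM, beside 87198 ± 7804 in the cortex and 33182 ± 4325 in the cerebellum on the 12-library scale.

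For some miRNAs with 2 hairpins, the arm opposite the guide differs between the hairpins and so names its locus. These arms were chosen after their values were seen, and whether their levels follow the output of the locus was not tested. MiR-7a-5p, which binds the circular RNA Cdr1as, stood at 3376, 1408, 3164 and 1421 CPM in the cortex and 409, 561, 1430.4 and 1020 in the cerebellum (log2 fold change 1.47, SE 0.30, adjusted p = 0.000394), and the cerebellum of pup 6 overlapped the cortex of pups 3 and 8. MiR-7a-2-3p, from chr7:78888277-78888373, stood at 545, 757, 674 and 597 and 96.9, 102, 181 and 149 CPM (log2 fold change 2.32, SE 0.23, adjusted p = 2.12e-07). MiR-7a-1-3p, from an intron of Hnrnpk at chr13:58392779-58392886, was not called (log2 fold change -0.28, SE 0.29, adjusted p = 0.404). MiR-7b-5p, which shares the seed, was called at 1.04, and the miR-7 and miR-671 list held 3 calls for the cortex and 0 for the cerebellum among 6 tested.

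For miR-128, the arm of the hairpin in R3hdm1 at chr1:128202361-128202430, miR-128-1-5p, had 55.6, 43.8, 35.5 and 75.3 CPM in the cortex and 12.1, 8.29, 16.2 and 11.99 in the cerebellum (log2 fold change 2.09, SE 0.35, adjusted p = 6.70e-05). The arm of the hairpin in Arpp21 at chr9:112118636-112118711, miR-128-2-5p, had 183, 172, 138 and 250.2 and 217, 212, 124 and 160.3 CPM and was not called (log2 fold change 0.063, SE 0.23, adjusted p = 0.819). MiR-129-1-3p was called at 1.38, and miR-129-2-3p was not (0.47, adjusted p = 0.0496, under the fold limit, and called at 0.67 without pup 6). MiR-138-2-3p was called at 0.86, and miR-138-1-3p was not (0.20).

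MiR-135a-1-3p and miR-135a-2-3p went in opposite directions, at 1.21 (adjusted p = 0.0248) and -1.41 (adjusted p = 0.0113). Both were scarce and overlapped between the regions. Without pup 2, 3 or 8, miR-135a-1-3p was no longer called (0.76, 1.05 and 1.23), nor was miR-135a-2-3p without pup 8 (-0.91). The guide shared by both hairpins, miR-135a-5p, was not called (log2 fold change -0.34, SE 0.26, adjusted p = 0.274), although it was without pup 2 (-0.69). The difference between the 2 arms was in the same direction in 4 of 4 pups for miR-7a, miR-128, miR-129 and miR-135a and in 3 of 4 for miR-138, and the two-sided exact paired permutation gave the smallest p-value it can, 0.125, for the former and 0.25 for the latter, before adjustment for 5 comparisons.

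The 2 arms of 1 hairpin mostly went together. Of 101 pairs with both arms tested, 53 had both called in the same direction, 23 had 1 called, 24 had neither, and 1 had both called in opposite directions. Across pairs, which are not independent, the log2 fold changes of the arms had a Pearson correlation of 0.893, with a median difference in size of 0.35. The exception was miR-672, whose hairpin lies in an intron of Nexmif at chrX:104116175-104116274, and both of its arms are shown.
miR-672-5p: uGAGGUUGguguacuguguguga
miR-672-3p: aCACACAGucacuaucuucga

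MiR-672-5p stood at 278, 219, 482 and 356 CPM in the cortex and 675, 681, 680.0 and 441 in the cerebellum (log2 fold change -0.93, SE 0.24, adjusted p = 0.00261), with the cerebellum of pup 8 inside the range of the cortex. MiR-672-3p stood at 45.96, 54.4, 49.1 and 51.5 and 27.2, 24.9, 32.9 and 23.6 CPM (log2 fold change 0.89, SE 0.29, adjusted p = 0.0142), without overlap. Without pup 3 or 8, miR-672-3p was no longer called (0.77 and 0.82). No group of neighbouring hairpins held calls in both directions. Of 24 groups of hairpins on the same strand no more than 10000 bases apart, 7 held calls for the cortex alone, 12 for the cerebellum alone, 5 none, and 0 both. Over all 425 miRNAs, 30.6% were called for the cortex and 27.8% for the cerebellum. The groups count both arms of a hairpin, and several of the 7 are stretches of the chromosome 12 locus, so these are not independent observations.

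**Figure D4:**
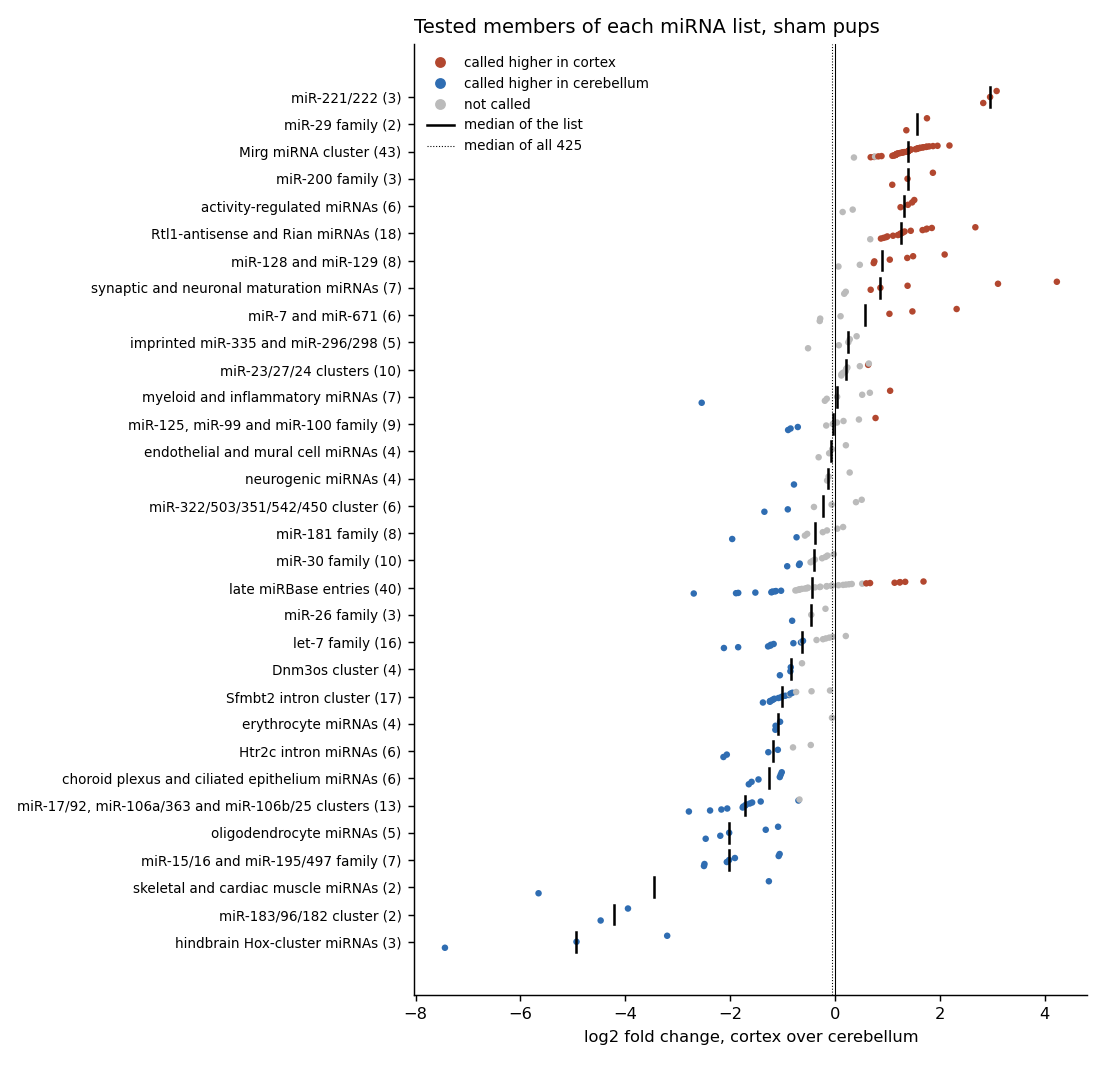
The log2 fold change of cortex over cerebellum (horizontal axis) is shown for each tested member of 32 miRNA lists (1 row each, number of members in parentheses), coloured by call, with a bar at the median of the list and a dotted line at the median of all 425. The Hox-cluster list at -4.93 and the list of miR-221 and miR-222 at 2.95 mark the ends of the order.

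Some lists of miRNAs that mark other cell types differed between the regions, while the endothelial and the myeloid lists had few calls or none, and their part in the other results was not tested. The oligodendrocyte miRNAs miR-219 and miR-338, which drive myelinating cells to differentiate, were higher in the cerebellum in 5 of 5 tested entries (median -2.02). MiR-219a-2-3p stood at 1606, 1037, 1288 and 2030.2 CPM in the cortex and 4545, 6405, 7235 and 5609.9 in the cerebellum, without overlap (log2 fold change -2.02, SE 0.22, adjusted p = 5.16e-07). MiR-219b-5p (-2.47), miR-219a-1-3p (-2.19) and miR-338-5p (-1.09) followed. The summed level of the list was 1436 to 2574 CPM in the cortex and 5484 to 8273 in the cerebellum.

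The choroid plexus lies against the cerebellum in the fourth ventricle. Its miRNAs and those of multiciliated cells were higher in the cerebellum in 6 of 6 tested entries (median -1.26), and so were 4 of 6 from the introns of Htr2c, a gene the choroid plexus expresses strongly (median -1.18). The former list summed to 2044 to 2632 CPM in the cortex and 2676 to 8993 in the cerebellum, and the latter to 195 to 409 and 333 to 2257, with wide spread among the cerebella. MiR-204-5p, from an intron of Trpm3, stood at 1927, 2028, 1879 and 2503 CPM in the cortex and 8148, 4364, 2399 and 3694 in the cerebellum (log2 fold change -1.02, SE 0.23, adjusted p = 0.00126). The cerebellum of pup 6 fell within the cortex range, and that of pup 2 was the highest. The same order held for miR-1298-5p, at 176, 125, 179 and 162 and 1677, 827, 138 and 789 CPM (log2 fold change -2.07, SE 0.42, adjusted p = 0.000414), where pup 6 alone had the opposite direction. MiR-448-3p (-2.13), miR-34b-3p (-1.65), miR-34c-5p (-1.46) and miR-204-3p (-1.59) were called. So were miR-448-5p and miR-1264-3p, which lost the call without pup 3 (-0.88 and -1.14) and without pup 8 (-1.10 and -1.03), which left 2 of the 6 called in either case.

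The blood miRNAs of the miR-486 family were higher in the cerebellum, at -1.14 for miR-486a-5p, -1.14 for miR-486b-5p and -1.05 for miR-486a-3p, while miR-451a, the most specific of red cells, was not called (log2 fold change -0.06, SE 0.26, adjusted p = 0.847). Without pup 3, miR-486a-3p was no longer called (-0.96). The red cell list, with miR-451a, summed to 755 to 1137 CPM in the cortex and 1293 to 2250.1 in the cerebellum. The guide strands of miR-486a and miR-486b are near-identical, so that their reads cannot be told apart. The endothelial and mural list had 0 of 4 calls, with miR-126a-3p at 0.20 (SE 0.21) and miR-143-3p at -0.057 (SE 0.20), and its summed level was 4482 to 6785 CPM in the cortex and 3974 to 6910.2 in the cerebellum. Of 7 myeloid and inflammatory miRNAs, miR-155-5p was higher in the cerebellum (log2 fold change -2.54, SE 0.34, adjusted p = 6.90e-06) and miR-146b-5p higher in the cortex (1.05). Without pup 6, 2 of the 7 were called higher in the cortex. Of 4 tested entries in the list of the mesenchymal Dnm3os cluster, 3 were higher in the cerebellum (summed level 150.2 to 226 CPM in the cortex and 317 to 367 in the cerebellum), miR-199a-3p (-0.85), miR-199b-3p (-0.85) and miR-214-3p (-1.05), all of which lost the call without pup 8 (-0.71, -0.64 and -0.81). MiR-199a-3p and miR-199b-3p have the same mature sequence, so that these calls are not separate measurements, and the hairpin of miR-199b lies on chromosome 2, outside Dnm3os.

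The 3 tested miRNAs of the miR-200 family, known from epithelia and olfactory neurogenesis, were higher in the cortex. MiR-200b-3p stood at 88.3, 45.5, 40.5 and 30.2 CPM in the cortex and 18.5, 19.9, 17.2 and 17.1 in the cerebellum, without overlap and with the highest cortex in pup 2 (log2 fold change 1.38, SE 0.33, adjusted p = 0.00168). MiR-429-3p had a log2 fold change of 1.86, and miR-200c-3p one of 1.09, which lost the call without pup 2 (0.54) or pup 6 (1.19).

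Several of the most abundant brain miRNAs were not called. MiR-9-5p, of neural progenitors, stood at 74961, 55974, 68852 and 83737 CPM in the cortex and 63541, 65499, 90657 and 90258 in the cerebellum (log2 fold change -0.12, SE 0.16, adjusted p = 0.504). MiR-124-3p, of neurons, stood at 38809.6 ± 1549 and 32307 ± 5235 CPM (log2 fold change 0.28, SE 0.16, adjusted p = 0.139), and miR-26a-5p at 42293 ± 1641 and 48895 ± 10755 (log2 fold change -0.18, SE 0.16, adjusted p = 0.346). Their libraries overlapped between the regions, and a p-value that misses the threshold does not show that the levels are alike. MiR-181a-5p passed the p-value but not the fold limit (log2 fold change -0.53, SE 0.15, adjusted p = 0.00633), which it passed without pup 3 (-0.66), and 2 of the 8 of its family were called, miR-181b-2-3p (-1.96) and miR-181a-1-3p (-0.74). Without pup 6, 1 of the 8 was called. MiR-124-5p, the arm opposite the abundant one, was called at -0.79.

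Over all 425 miRNAs, 27.8% were called higher in the cerebellum and 30.6% in the cortex. Among the remaining lists, the counts for the cerebellum in the miR-30, miR-26 and miR-322 and miR-503 lists were near that share. Of 10 in the miR-30 family, 3 were higher in the cerebellum, from -0.91 for miR-30c-1-3p, which lost the call without pup 2 (-0.65), pup 3 (-0.85) or pup 8 (-0.88), to -0.68 for miR-30c-2-3p, with miR-30c-5p at -0.69. Of 3 in the miR-26 family, only miR-26a-2-3p was called (-0.82), and it lost the call whichever pup was left out (from -0.92 to -0.77). Of 10 in the miR-23/27/24 clusters, miR-24-3p alone was called (0.63), and it lost the call without pup 2 (0.42) or pup 8 (0.55). Of 6 in the chromosome X cluster of miR-322 and miR-503, miR-351-3p (-1.35) and miR-503-5p (-0.90) were higher in the cerebellum, the former lost without pup 3 (-1.09) and the latter without pup 3 (-0.70), 6 (-0.96) or 8 (-1.02). None of the 5 at the imprinted loci of miR-335, miR-296 and miR-298 was called, with miR-298-5p at 0.28 and miR-335-5p at 0.25.

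Entries added late to miRBase, many with weak support as miRNAs, held 10 calls for the cerebellum and 7 for the cortex among 40 tested. The shares over all 425 were 27.8% for the cerebellum and 30.6% for the cortex. The late entries were thus near the former and below the latter. MiR-2137 was the largest, at 188, 273, 277 and 278 CPM in the cortex and 1599, 2966, 1277 and 1154 in the cerebellum (log2 fold change -2.70, SE 0.24, adjusted p = 7.20e-08), and miR-1955-5p (-1.89) and miR-5126 (-1.85) came next. On the other side were miR-3072-3p (1.69), which lies in the chromosome 12 locus, and miR-1983 (1.23). Among the 140 tested miRNAs in none of the 32 lists, 38 were higher in the cortex and 26 in the cerebellum, with a median of -0.012.

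The pups were not alike in the size of the difference. Among the 130 miRNAs called higher in the cortex, the cerebellum of pup 6 had the highest of the 4 cerebellar levels for 96, and the median log2 ratio of cortex to cerebellum, with 1 CPM added, was 0.93 in pup 6, 1.202 in pup 8, 1.24 in pup 3 and 1.87 in pup 2. Among the 118 called higher in the cerebellum, the same median was -1.17 in pup 6, -1.21 in pup 8, -1.49 in pup 3 and -1.52 in pup 2, so that pups 6 and 8 were nearly alike. The miRNAs counted here were chosen by their difference in these same pups. Without pup 6, 229 miRNAs were called, 125 higher in the cortex and 104 in the cerebellum. The cause of these differences between pups was not tested.

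The striatum/thalamus of the same pups was set beside the 2 regions as a description. Of the 130 miRNAs called higher in the cortex, its mean level lay between the others for 60, at or above the cortex for 65, and at or below the cerebellum for 5. Of the 118 called higher in the cerebellum, it lay between for 67, at or below the cortex for 43, and at or above the cerebellum for 8. On this scale miR-137-3p had 21.5 ± 10.4 CPM in the striatum/thalamus, miR-206-3p 36.2 ± 12.5 and let-7b-5p 11605 ± 2587.

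The same comparison in the 4 HIBI pups, which share no animal or library with the sham pups, asked whether the regional calls recur in other animals. There, 166 of the same 425 miRNAs were called, 87 higher in the cortex and 79 in the cerebellum. Of the 248 sham calls, 146 were called in the same direction (79 in the cortex and 67 in the cerebellum), 242 had the same sign, and 0 were called in the opposite direction. Across the 425 miRNAs, which are not independent, the log2 fold changes of the sets had a Pearson correlation of 0.894 and a Spearman correlation of 0.860. The median size of the sham calls was 1.28 on the log2 scale in the sham pups, in which they were called, and 0.90 in the HIBI pups. HIBI pups differ from sham pups by the injury as well, and the difference between the sets was not tested.

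**Figure D5:**
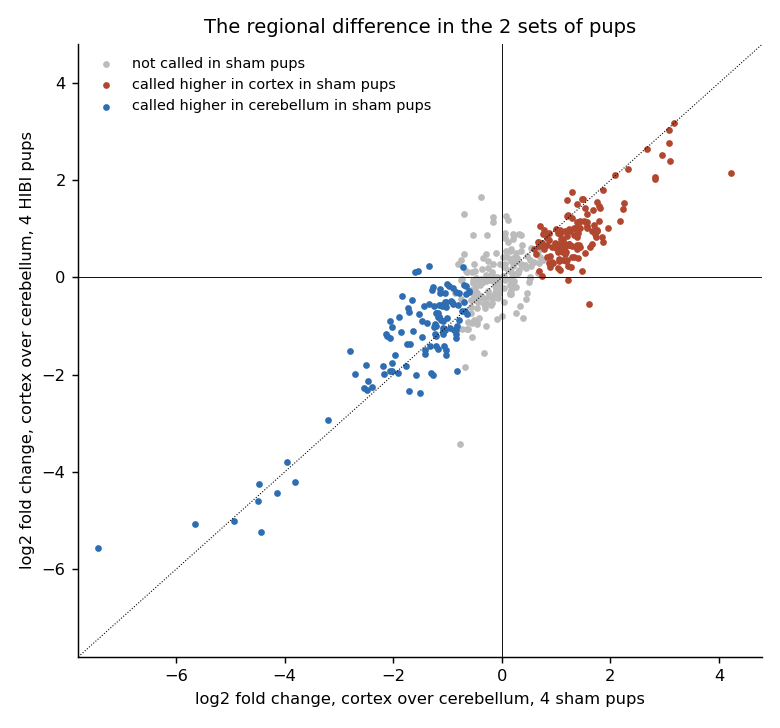
The log2 fold change of cortex over cerebellum in 4 HIBI pups (vertical axis) is plotted against that in 4 sham pups (horizontal axis) for 425 miRNAs, coloured by the call in the sham pups, with a dotted line of equality. Of the 248 coloured points, 242 lie in the quadrants of equal sign, and the points called in the cortex lie mostly between the line and zero.

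The leading miRNAs of both directions were called in both sets. The log2 fold change in the HIBI pups was -5.56 for miR-615-3p, -5.07 for miR-206-3p, -5.02 for miR-10a-5p and -4.60 for miR-216b-5p. In the other direction it was 3.02 for miR-139-5p, 2.53 for miR-221-3p, 2.15 for miR-137-3p, 2.23 for miR-7a-2-3p and 2.10 for miR-128-1-5p. Over all sham calls, 146 of 248 were shared. The Hox-cluster list kept 3 of 3 calls, the miR-15/16 list 7 of 7 and the miR-17/92 list 9 of 12. At the chromosome 12 locus, 12 of 17 and 27 of 41 calls were shared. Of the choroid plexus list, 1 of 6 calls was shared, and its median in the HIBI pups was -0.54. The red cell list kept 0 of 3, with a median of -0.28 in the HIBI pups, and the miR-322 and miR-503 list 0 of 2. The let-7 list kept 5 of 9 and the Sfmbt2 list 7 of 13, both near the share over all sham calls. The miR-7 and miR-671 list kept 1 of 3. The miR-125, miR-99 and miR-100 list had 1 sham call for the cortex and 3 for the cerebellum, and 1 of these was kept. The activity list kept 4 of 4 and the oligodendrocyte list 5 of 5.

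The 6 sham calls with the opposite sign in the HIBI pups were miR-125a-5p (0.21), miR-204-3p (0.12), miR-351-3p (0.24), miR-380-5p (-0.062), miR-410-5p (-0.56) and miR-709 (0.14), none of which was called there. MiR-709 was also no longer called in the sham pups without pup 6 (-1.14). In the other order, miR-1251-5p was not called in the sham pups (log2 fold change -0.78, SE 0.44, adjusted p = 0.129) and had a log2 fold change of -3.43 in the HIBI pups (SE 0.42, adjusted p = 8.46e-05). Without pup 2 it was called in the sham pups as well (-1.22). It was chosen after its values were seen. Its hairpin lies in an intron of Rmst at chr10:92137140-92137223, in the same gene as that of miR-135a-2 at chr10:92072086-92072185, whose arm miR-135a-2-3p had -1.49 in the HIBI pups.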

How the data were processed

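MiRNA-Seq counts of the cortex and cerebellum of 4 sham and 4 HIBI pups were used. The authors used Bowtie2 with miRBase mature sequences of the mouse, and the counts they deposited are whole reads per mature miRNA and library that were not normalized. Deposited columns with the edgeR results of the study for injury (log2 fold change, mean log2 CPM, p-value and false discovery rate) were not used. Versions, the miRBase release and the rule for reads with several matches are not given in the sources used here. Of 1551 entries, 20 named for the castor bean held 19 counts in the 8 sham libraries and were left out.

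Entries with a mean above 10 CPM over the 8 sham libraries were fitted in R 4.3.3 with edgeR 4.0.16 (TMM, quasi-likelihood, terms for pup and region), and p-values were adjusted by the Benjamini-Hochberg method over the 425 tested. Calls needed an adjusted p under 0.05 and a fold change above 1.5. DESeq2 1.42.0, limma-voom 3.58.1, the edgeR exact test, and other normalizations, minimums and sets of pups served as alternatives. Scripts were tested on simulated data.

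Both regions came from the same animals, which is the source of the pairing. The deviations of cortex and cerebellum from their group means correlated at 0.00199 to 0.349 within pups, above 0.1 in 3 of 4. P-values set the difference between cortex and cerebellum against its spread among these pups, since the pup itself is a term of the fit. That spread is not estimated from each miRNA alone, because edgeR draws it toward the trend over all tested miRNAs. The SE is the absolute log2 fold change divided by the square root of the F statistic of the test. Named miRNAs were the 10 largest calls in each direction with 4 of 4 pups alike, the 6 most abundant calls in each direction, the 5 most abundant miRNAs of each region, up to 4 calls of each list by p-value (or the 2 most abundant members if none was called), and hairpins with arms called in opposite directions. Other miRNAs named, such as relatives sharing a seed, locus or hairpin, were chosen after their values were seen. The comparison, members and lists were chosen with earlier results of these data known. Hairpin positions and sequences are those of RefSeq on GRCm38.p6, and host genes those of GENCODE M21.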

Additional observations from a re-analysis of the deposited data

Results flagged for a closer look

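Levels of 149 miRNAs were screened in each region for a library set apart from the other 3, by the gap to the nearest library as a share of the range of the 4, above the critical value of Dixon's test. Of the groups of 4, 17 passed, where chance alone gives about 1 in 20, or 14.9. No explanation was tested.

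Pup 3 was high for miR-10a-5p in both the cortex (32.2 CPM against 9.19 to 11.8 in the others, gap 0.885 of the range) and the cerebellum (1244 against 206 to 365, gap 0.847). It was also high for miR-206-3p in the cortex (11.2 against 6.36 to 6.89, gap 0.890), high for miR-351-3p in the cerebellum (32.1 against 15.8 to 17.2, gap 0.915), and low in the cortex for miR-344d-3p (340.3 against 522 to 536, gap 0.927) and miR-322-5p (25.1 against 41.9 to 43.8, gap 0.897).

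Pup 2 was high for miR-182-5p in the cortex (208 against 22.5 to 42.3, gap 0.893), for miR-448-5p in the cerebellum (46.2 against 23.3 to 27.1, gap 0.836) and for miR-486a-3p in the cerebellum (52.2 against 28.2 to 29.5, gap 0.947). It was low in the cortex for miR-2137 (188 against 273 to 278, gap 0.940), miR-5126 (87.3 against 157 to 161, gap 0.946) and miR-129-2-3p (722 against 809.7 to 827, gap 0.837).

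Pup 6 was high for miR-137-3p in the cerebellum (15.7 against 1.11 to 3.43, gap 0.841) and low for miR-93-5p in the cortex (1342 against 1502 to 1526, gap 0.871). Pup 8 was low for miR-467d-5p in the cortex (16.2 against 23.1 to 23.4, gap 0.948), low for miR-672-5p in the cerebellum (441 against 675 to 681, gap 0.973) and high for miR-410-5p in the cortex (74.9 against 50.9 to 54.3, gap 0.856). For 0 of the 149 did every sham pup go one way and every HIBI pup the other.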

How the results depend on the processing

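The number called stayed between 244 and 283 under the other normalizations, tests and lower minimums (248 as reported), and between 211 and 231 with 1 sham pup left out, in the range of 111 to 125 for the cortex and 100 to 115 for the cerebellum. Without the replicate block, 247 were called (127 and 120), and 129 of them shared the call in HIBI pups, beside 146 with the pairing. With a mean above 100 CPM, which left fewer miRNAs to test, 137 were called (74 in the cortex and 63 in the cerebellum) and 90 were shared. The shared calls ranged from 105 to 146 with 1 pup left out, the lowest without HIBI pup 4. No sham call changed sign under any alternative fitted in the sham pups, and at most 41 were lost, without pup 8. Upper quartile normalization shifted the median of all miRNAs by -0.10 and a minimum of 1 CPM shifted it by 0.11.

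Of 2176 values of 149 miRNAs, 58 lost the call, 15 gained it and 18 changed sign, the last only for miRNAs that were not called. MiR-128-2-5p turned to -0.038 with upper quartile normalization and -0.029 above 100 CPM, miR-143-3p to 0.055 above 1 CPM and 0.023 with no minimum, let-7i-5p to 0.066 and 0.034, miR-451a to 0.053 and 0.021, and let-7g-5p to 0.0034 above 1 CPM. With 1 pup left out, values ran from -0.091 to 0.40 for miR-126a-3p, -0.11 to 0.48 for miR-335-5p, -0.31 to 0.11 for miR-143-3p, -0.0088 to 0.43 for miR-138-1-3p, -0.17 to 0.036 for let-7i-5p, -0.35 to 0.22 for miR-451a and -0.13 to 0.15 for miR-128-2-5p. The causes were not tested. Near 10 CPM, counting error limits what can be called.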
